A study of Mus musculus with 8 samples.

Results

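Cdkn2a, its neighbour Cdkn2b and 4 further genes of growth arrest and cell death were followed in single nuclei of the midbrain of wild type mice and of mutants of Polycomb repressive complex 2 (PRC2), which methylates histone H3 at silenced genes. The 6 genes, of 23481 in the deposited table, were listed by name: the INK4 inhibitors Cdkn2a, Cdkn2b and Cdkn2c, the CIP/KIP inhibitors Cdkn1a and Cdkn1b, and Pmaip1. They were picked because some of them stood out in these same nuclei, so their genotype differences are given as a description and no test was made. All 6 were found in the table and all 6 passed the minimum of 10 tags over both libraries that was set for a gene to be measured.

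Nuclei of adult midbrain were isolated, sorted and made into 10x Chromium 3' (v3) libraries, in which each unique molecular identifier (UMI, here also called a tag) stands for 1 captured transcript end. The labels name the cells as mDA (midbrain dopaminergic) and the strain as DatCreEed. That name joins Cre under the dopamine transporter gene, which acts in dopamine neurons, with Eed, a core subunit of PRC2. Of the 2 groups, one is wild type (wt) and the other a PRC2 mutant (mut). Each group was 1 library from a pool of 3 mice, 2 female and 1 male, aged 8 months, read on 4 flow cell lanes that the table does not keep apart. The labels do not say whether the wt mice carried Cre, nor which part of Eed was deleted, so the tags of Eed do not check the genotype.

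With 1 library per genotype there was no replicate, and genotype, pool and batch cannot be told apart. All intervals are 95% intervals for counting error only, exact Poisson for levels and exact binomial for shares and ratios. Levels are tags per 1000000 tags (CPM) summed over the nuclei of a kind.

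The INK4 proteins bind the kinases Cdk4 and Cdk6 and keep the D cyclins from driving a cell out of its resting state, while the CIP/KIP proteins p21 (Cdkn1a) and p27 (Cdkn1b) act on a wider range of cyclin kinases. Cdkn2a has separate start sites that lead to unrelated proteins, p16 INK4a, a kinase inhibitor, and p19 ARF, which protects p53 by holding Mdm2. The locus of Cdkn2a and Cdkn2b is a textbook target of Polycomb silencing, and its opening is a mark of cellular senescence. Neurons have left the cell cycle for good, and p27 is one of the inhibitors that help to keep them there.

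The starts of the silenced locus are shown because they are where PRC2 is known to act and because the counts cannot tell them apart. On mm10 Cdkn2a lies on the minus strand of chromosome 4 from 89274471 to 89294653, and Cdkn2b lies upstream on the same strand from 89306299 to 89311039, its start 16.4 kb from that of Cdkn2a. In the annotation the ARF transcript starts with an exon at 89294334 to 89294653 and the p16 transcript with one at 89281986 to 89282192. Both go on with the same exon at 89276645 to 89276985. Their last exon begins at 89274774 in both, and its 3' end is at 89274471 in the p16 transcript and 89274541 in the ARF transcript. Tags in the shared part of this exon do not tell the transcripts apart. The stretches before each start are from RefSeq (GRCm38.p6, the same assembly as mm10), are read 5' to 3' on the minus strand and carry each CpG in capitals. They lie at chr4:89294654-89294869 for ARF, chr4:89282193-89282442 for p16 and chr4:89311040-89311282 for Cdkn2b.
Cdkn2a ARF start: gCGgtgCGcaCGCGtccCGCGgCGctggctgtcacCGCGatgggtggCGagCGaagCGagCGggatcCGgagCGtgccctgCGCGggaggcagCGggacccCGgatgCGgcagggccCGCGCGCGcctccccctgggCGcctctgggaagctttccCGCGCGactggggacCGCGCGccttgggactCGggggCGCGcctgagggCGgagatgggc
Cdkn2a p16 start: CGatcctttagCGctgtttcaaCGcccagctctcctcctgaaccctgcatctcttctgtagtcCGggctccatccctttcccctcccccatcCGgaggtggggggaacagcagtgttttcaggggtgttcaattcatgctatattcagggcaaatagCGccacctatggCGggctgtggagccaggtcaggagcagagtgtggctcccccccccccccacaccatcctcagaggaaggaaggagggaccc
Cdkn2b start: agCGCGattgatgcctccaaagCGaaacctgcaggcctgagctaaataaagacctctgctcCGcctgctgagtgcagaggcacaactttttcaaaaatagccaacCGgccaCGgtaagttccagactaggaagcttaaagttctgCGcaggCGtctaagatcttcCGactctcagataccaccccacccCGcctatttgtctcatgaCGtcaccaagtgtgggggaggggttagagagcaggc

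The window from 250 bases before to 50 after the RefSeq start held 45 CpG at the ARF start, 12 at the p16 start and 18 at the Cdkn2b start. Over the 32817 windows of this length in the table of promoters the median was 7 CpG, and 1.93%, 39.6% and 29.7% of windows held at least as many as these. PRC2 is known to settle on CpG-rich promoters, and the ARF start was the densest of the 3. Of 4 E2F 8-mers searched on both strands (TTTCCCGC, TTTGGCGC, TTTCGCGC and TTTGCCGC), the ARF window held TTTCCCGC with its first base 99 bases before the start, and the p16 and Cdkn2b windows held none. Such an 8-mer was present in 2.26% of all windows. The windows of the other inhibitors varied, with 33 and 8 CpG at the starts of Cdkn2c (chromosome 4, 109660876 to 109667189), 30 at Cdkn1b (chromosome 6, 134920401 to 134925513) and 2 and 23 at those of Cdkn1a (chromosome 17, 29090976 to 29100727).

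Dopamine nuclei were those with at least 5 UMIs of Th, Slc6a3, Slc18a2 and Ddc together per 10000, which are the genes for dopamine synthesis, uptake and vesicle loading. They numbered 1320 of 1772 wt nuclei (74.5%, median 24257.5 UMIs) and 2875 of 3968 mutant nuclei (72.5%, median 19023 UMIs). The 9 mDA markers (the 4 genes of the rule, Lmx1b, Foxa2, En1, Pitx3 and Nr4a2) were all detected in them and summed to 2812 (wt) and 1613 CPM (mut), against 259 and 252 CPM in the other nuclei. The level of these markers was therefore itself lower in the mutant library, Th with a ratio of 0.420, and the rule reads genes that differ by genotype. Glial and vascular markers of at least 5 UMIs per 10000 were found in 16.9% of wt and 11.5% of mutant dopamine nuclei, and no doublet caller was run. No marker of another cell class was at 0 in dopamine nuclei: the 9 oligodendrocyte markers summed to 183 (wt) and 158 CPM (mut), the 7 astrocyte markers to 72.9 and 51.0, the 7 microglia markers to 51.9 and 42.7 and the 3 GABA markers to 34.0 and 179 CPM. Their part in the levels given here was not tested. The libraries shared 4 cell barcodes.

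Cdkn2a was found in 1 wt dopamine nucleus and in 791 (27.5%) of the mutant ones. A single Cdkn2a UMI was found among the 39383984 UMIs of wt dopamine nuclei (0.0254 CPM, 0.000643 to 0.141) and 1255 among the 68742978 of mutant dopamine nuclei (18.3 CPM, 17.3 to 19.3). The ratio was 719, with an interval of 129 to 28422 that is wide because it rests on 1 wt UMI. With 5 CPM added to both sides, which keeps genes of few tags from leading the list, the log2 ratio was 2.21 and Cdkn2a was rank 38 of 20074 measured genes.

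Cdkn2b, which encodes the inhibitor p15 INK4b, followed Cdkn2a at a lower count. It had 1 UMI in wt and 315 in mutant dopamine nuclei, 0.0254 against 4.58 CPM (4.09 to 5.12), a ratio of 180 (32.2 to 7150) and a log2 ratio of 0.93 with 5 CPM added. Cdkn2c, the gene of the related inhibitor p18, had 1 UMI in wt and 34 in mutant dopamine nuclei (0.495 CPM, 0.343 to 0.691), a ratio of 19.5 (3.27 to 792). Its log2 ratio with 5 CPM added was only 0.13, since its level stayed under 1 CPM in both libraries.

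Pmaip1 (Noxa), a BH3-only protein that promotes cell death and a known p53 target, had 1 UMI in wt and 124 in mutant dopamine nuclei. Its level was 0.0254 against 1.80 CPM (1.5 to 2.15), a ratio of 71.0 (12.5 to 2828), and the log2 ratio with 5 CPM added was 0.44. Pmaip1 thus fell under the 1.5-fold mark with 5 CPM added and passed it with 1 CPM added (log2 1.45).

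The CIP/KIP genes were already present in wt dopamine nuclei and had smaller ratios than the other members. Cdkn1a had 31 UMIs in the wt and 107 in the mutant library, 0.787 (0.535 to 1.12) against 1.56 CPM (1.28 to 1.88), a ratio of 1.98 (1.32 to 3.05). Cdkn1b had 197 and 408 UMIs, 5.002 (4.33 to 5.75) against 5.94 CPM (5.37 to 6.54), a ratio of 1.19 whose interval (0.999 to 1.41) included 1. In log2 with 5 CPM added these were 0.18 and 0.13, beside 0.13 for Cdkn2c.

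Counted as called at 1.5-fold or more with 5 CPM added, 2 of the 6 genes (Cdkn2a and Cdkn2b) were higher in mutant dopamine nuclei and 0 were lower. Over all 20074 measured genes 1.62% were called higher and 1.19% lower, and nothing is read from the members' share because they were chosen on this contrast. Cdkn2b at 0.93 was the member just inside the mark and Pmaip1 at 0.44 the one just outside it. With 1 CPM added 3 of the 6 were higher, against 3.57% of all genes. All measured genes had a median of 0.01.

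**Figure D1:**
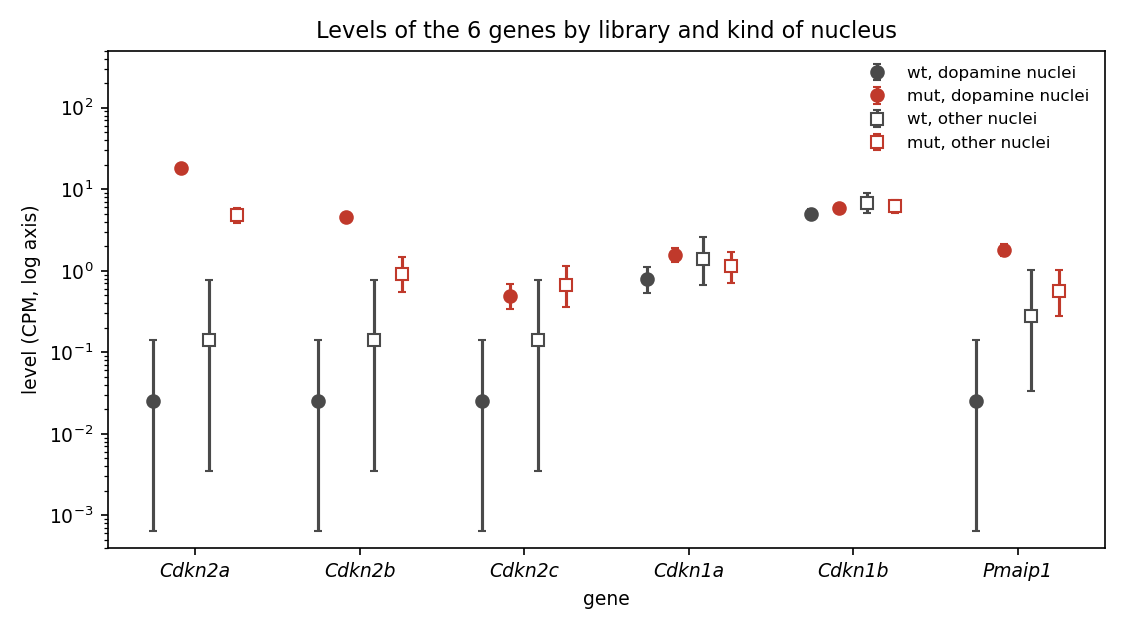
Level of each of the 6 genes (CPM, log axis) in dopamine nuclei (filled circles) and other nuclei (open squares) of the wt (grey) and mutant (red) library, with exact 95% Poisson intervals. In dopamine nuclei Cdkn2a, Cdkn2b, Cdkn2c and Pmaip1 rest on 1 wt UMI each, while Cdkn1b lies at 5.002 and 5.94 CPM.

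The remaining nuclei, with under 5 dopamine UMIs per 10000, show the same genes outside the dopamine class. Their number was 452 in the wt and 1093 in the mutant library. Cdkn2a had 1 UMI in the wt (0.140 CPM) and 94 in the mutant other nuclei (4.83 CPM, 3.904 to 5.91), a ratio of 34.6 (6.06 to 1380), so its mutant level there was lower than in dopamine nuclei, with intervals that do not overlap. Cdkn2b had 1 and 18 UMIs (0.140 and 0.925 CPM) and Pmaip1 2 and 11 UMIs (0.279 and 0.565 CPM). In these nuclei 1 of the 6 genes, Cdkn2a, was called higher, against 0.786% of 17308 measured genes, and 0 were called lower, against 1.55%.

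Cdkn1a and Cdkn1b did not follow Cdkn2a over all the other nuclei. Cdkn1a had 10 and 22 UMIs in other nuclei (1.40 and 1.13 CPM, ratio 0.809, 0.368 to 1.91) and Cdkn1b 49 and 120 UMIs (6.85 and 6.17 CPM, ratio 0.901, 0.641 to 1.28). Both intervals included 1. In the other nuclei without glial tags the ratio of Cdkn1a was 4.35 (0.661 to 184), on 1 wt UMI. That of Cdkn1b was 1.53 (0.903 to 2.76) there, and these intervals also included 1. Cdkn1b was highest in glial nuclei, at 21.9 (wt) and 23.6 CPM (mut), a group whose share of the other nuclei differed (139 of 452 wt and 193 of 1093 mutant nuclei).

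The glial nuclei, set at 20 or more glial and vascular marker UMIs per 10000, give the level in a cell class that should lack the Cre driver. Free RNA and doublets were not measured, so the source of tags in these nuclei was not tested. The limit of 20 was chosen after the data were seen. Cdkn2a had 0 UMIs in 139 wt and 2 UMIs in 193 mutant glial nuclei (1.82 CPM, 0.220 to 6.56), and Cdkn2b had 0 and 1. A Cdkn2a tag was thus present in 1.04% of mutant glial nuclei (0.126 to 3.69) at a median of 3108 UMIs, against 27.5% of mutant dopamine nuclei (25.9 to 29.2) at 19023. Among the 90 mutant dopamine nuclei with under 5000 UMIs the share was 2.22% (0.270 to 7.80), so at that depth the glial and dopamine shares were not told apart. The same glial nuclei held 7 UMIs of Hoxc4 and 20 of Pax3, developmental regulators that are Polycomb targets, against 0 and 1 in wt glial nuclei.

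In the mutant library the level of Cdkn2a moved with the dopamine identity of the nucleus. It was 2.22 CPM (1.41 to 3.34) in the 605 nuclei with under 1 dopamine UMI per 10000, 4.71 from 1 to 2 and 8.85 (6.75 to 11.4) from 2 to 5, just outside the limit. Just inside the limit, from 5 to 10, it was 15.7 CPM (14.0 to 17.5), and it was 19.6 (18.3 to 21.1) from 10 to 20. The level then levelled off, at 17.6 CPM (14.8 to 20.7) from 20 to 40, and the 7 nuclei above 40 held no tag.

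Cdkn2b went the same way, from 0.193 CPM in the lowest class to 5.19 from 10 to 20, and was lower again, 2.67 (1.67 to 4.04), from 20 to 40. Cdkn1b showed no such order: its 6 classes under 40 lay between 5.86 and 6.42 CPM. Hoxc4, a developmental regulator with 1 UMI in wt dopamine nuclei, went from 6.77 CPM in the lowest class to 130 CPM from 10 to 20 and 83.3 CPM from 20 to 40.

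How many nuclei carried Cdkn2a depended on depth. Of the mutant dopamine nuclei 2084 had no Cdkn2a UMI, 489 had 1, 190 had 2, 76 had 3, 26 had 4 and 10 had 5 to 7. The median depth went up with the count, from 16518 UMIs in nuclei with none to 25091 with 1 and 41952.5 with 4. In the wt library 1 nucleus had 1 UMI and 1319 had none.

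By depth class the share of mutant dopamine nuclei with a Cdkn2a tag was 6.26% from 5000 to 10000 UMIs, 20.1% from 10000 to 20000, 35.1% from 20000 to 40000 and 57.2% (52.1 to 62.2) from 40000 up. The level in CPM varied less over these classes, at 9.35 (6.36 to 13.3), 18.01, 19.97 and 17.8 (16.2 to 19.6). In the deepest class Cdkn2b was seen in 25.8% and Pmaip1 in 9.79% of nuclei. A nucleus without a Cdkn2a tag is therefore not shown to lack the transcript.

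Brought to a common 2000 UMIs per nucleus, which left out 35 wt and 27 mutant dopamine nuclei, the expected share with a Cdkn2a tag was 3.32% (2.69 to 4.04) in the mutant and 0.0114% in the wt library. It was 0.797% in mutant other nuclei. For Cdkn2b the mutant dopamine share was 9.08% unthinned and 0.791% thinned, for Pmaip1 3.93% and 0.318%, and for Cdkn2c 1.11% and 0.104%. Cdkn1b was carried by about the same share in both libraries, 13.0% of wt and 12% of mutant dopamine nuclei (thinned 1.10% and 1.22%), and Cdkn1a by 2.27% and 3.2% (thinned 0.163% and 0.299%).

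**Figure D2:**
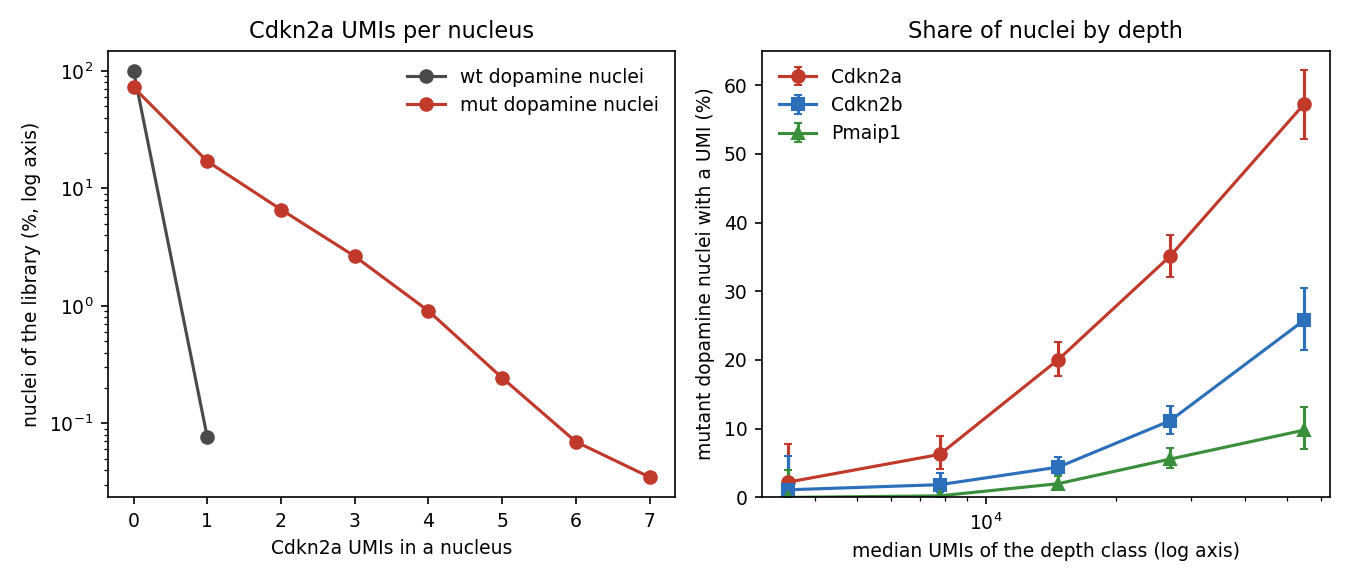
Left, share of wt (grey) and mutant (red) dopamine nuclei (%, log axis) by the number of Cdkn2a UMIs in the nucleus. Right, share of mutant dopamine nuclei with a tag of Cdkn2a, Cdkn2b or Pmaip1 by depth class (%, against the median UMIs of the class on a log axis, exact binomial intervals); Cdkn2a reached 57.2% in the deepest class.

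Within the mutant dopamine nuclei Cdkn2a was higher in those with more tags of Hox genes and Pax3. Nuclei were split by their summed tags of Pax3 and the 31 Hox genes of the table, the genes that pattern the body axis. Cdkn2a was at 4.41 CPM (3.02 to 6.23) in the 557 nuclei with none of these tags, 16.5 in the 1159 with up to 6.25 tags per 10000, the median of the rest, and 22.9 CPM in the 1159 above it. Kept to nuclei of 10000 to 40000 UMIs, the values were 5.56, 17.4 and 24.5 CPM.

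Cdkn2b gave 1.24, 4.38 and 5.51 CPM over the same 3 classes and Pmaip1 0.827, 1.47 and 2.32 CPM. Cdkn1b gave 5.93, 6.58 and 5.36 CPM and Cdkn1a 2.34, 0.993 and 1.89 CPM, with no order. The classes share their library and the tags of deep nuclei, so this is a description over nuclei and not a test.

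Dopamine nuclei were also sorted by 8 small sets of markers known for mDA subtypes, a split chosen with earlier results of these data known. Cdkn2a had tags in all 8 sets of the mutant library. It was highest in the Ndnf/Anxa1 set (25.8 CPM, 23.1 to 28.8, 450 nuclei), followed by the Cgnl1/Etv1/Pde11a set (20.7, 18.3 to 23.3, 535 nuclei), with intervals that just overlap. Next came Sema5b/Sulf1 (17.8), Glra2/Nt5e (15.9), Otx2os1/Klhl14 (15.5), Ebf2/Adam12/Htr2c (14.7) and Calcr/Npsr1/Nos1 (14.1), whose intervals overlap each other. Eya1/Neurod6 was lowest at 11.1 CPM (8.70 to 13.9, 273 nuclei), with an interval below those of the first 3 sets.

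Nuclei with none of the subtype markers, 185 in number, had 26.0 CPM (20.2 to 33.0). The single wt tag of Cdkn2a was in a nucleus of the Eya1/Neurod6 set. Hox and Pax3 tags per 10000 were also highest in the Ndnf/Anxa1 set (9.97) and lowest in the Eya1/Neurod6 set (3.58), and their part in the order of Cdkn2a was not tested. Cdkn2b varied less between the sets, from 3.09 CPM in Calcr/Npsr1/Nos1 to 5.90 in Ndnf/Anxa1, with overlapping intervals. Cdkn1b was at 8.53 CPM (6.46 to 11.1) in the Eya1/Neurod6 set and 4.36 (3.28 to 5.69) in the Ndnf/Anxa1 set, the opposite order to that of Cdkn2a for this pair.

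**Figure D3:**
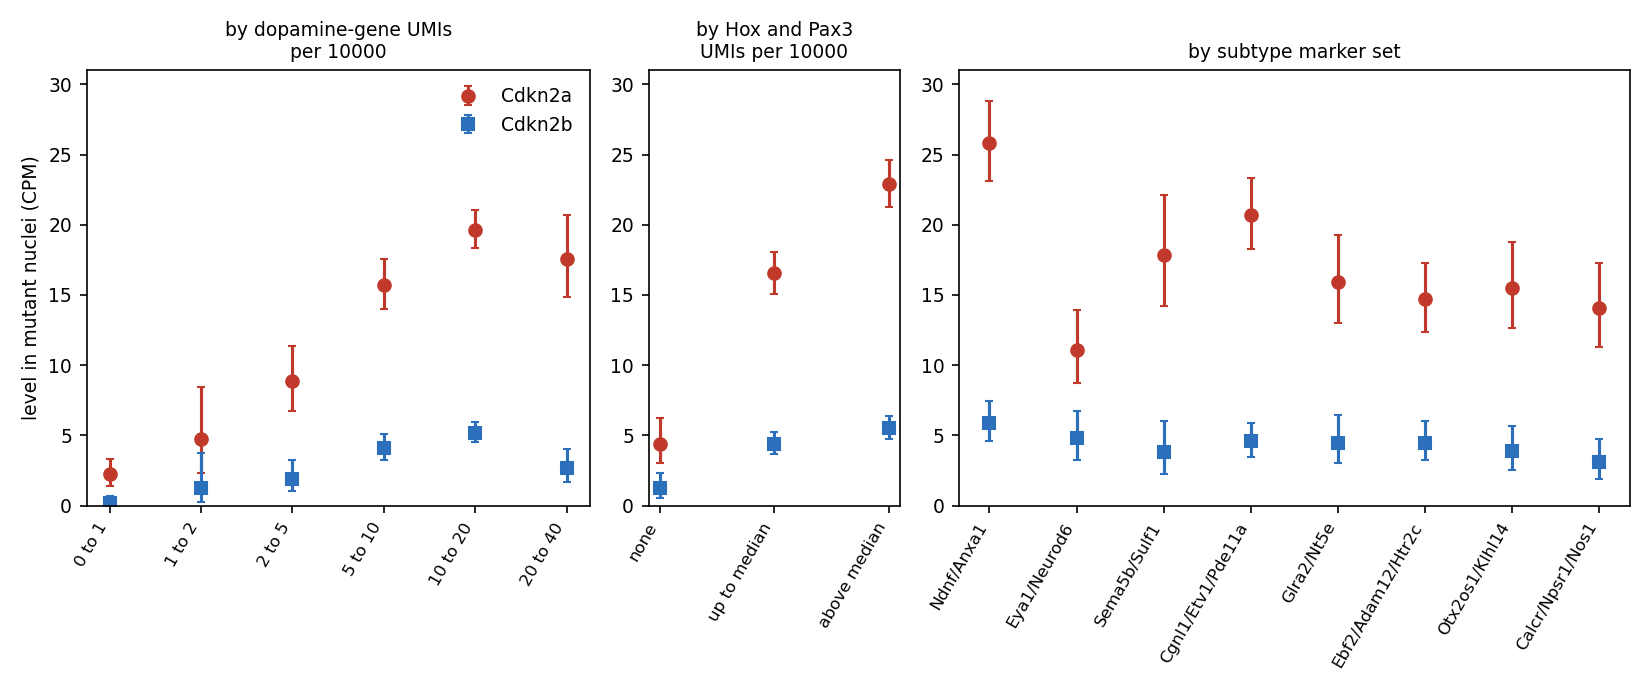
Level of Cdkn2a (red circles) and Cdkn2b (blue squares) in mutant nuclei (CPM, exact 95% Poisson intervals) by dopamine-gene UMIs per 10000 in all mutant nuclei, and by Hox and Pax3 tags and by subtype marker set in mutant dopamine nuclei. Cdkn2a runs from 2.22 to 19.6 CPM with dopamine tags and from 4.41 to 22.9 CPM with Hox and Pax3 tags.

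Each pool held 1 male, which allows a look inside the libraries. Nuclei with Y-linked tags and at most 1 Xist UMI were taken as male (194 wt and 322 mutant dopamine nuclei) and those with at least 2 Xist UMIs and no Y-linked tag as female (710 and 1929). Cdkn2a was at 17.1 CPM (13.1 to 21.9) in mutant male and 18.5 CPM (17.2 to 19.8) in mutant female nuclei. The wt nuclei held 0 UMIs in the male (an upper bound of 1.10 CPM) and 1 in the female group. The mutant level was thus found in the single male and in the female mice, whose nuclei cannot be told apart from each other. Cdkn2b was at 2.98 CPM (1.49 to 5.34) and 4.53 (3.93 to 5.21) in the mutant male and female nuclei.

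The neighbourhood of the locus was read within 500 kb of the Cdkn2a start, where 30 genes are annotated, 7 are in the table and 5 were measured. Gm12606, a lincRNA at 89235699 to 89273403 on the same strand just downstream of Cdkn2a, had 2 UMIs in wt and 157 in mutant dopamine nuclei (2.28 CPM, ratio 45.0, 12.2 to 375). Its start lies just past the end of Cdkn2a, and whether reads running past that end were counted to it was not tested. Dmrta1, a DMRT-family transcription factor gene at 89679436 to 89694772 on the plus strand, had 37 and 376 UMIs (0.939 and 5.47 CPM, ratio 5.82, 4.15 to 8.40). On the other side Mtap, a methionine salvage enzyme gene at 89137122 to 89181081, had 311 and 506 UMIs (7.90 and 7.36 CPM), a ratio of 0.932 (0.808 to 1.08). The lincRNAs Gm26867 and Wincr1 had at most 5 UMIs in a library. Beside Cdkn2a and Cdkn2b, which were chosen on this contrast, 1 of the 3 measured neighbours was called higher, against 1.62% of all genes: Dmrta1 at a log2 ratio of 0.82, with Gm12606 at 0.53 and Mtap at -0.06.

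The genes that the inhibitors act on, act with or are controlled by were read as 9 lists, of which 119 genes were measured, 10 were called higher and 0 lower in mutant dopamine nuclei. The lists were drawn up with earlier results known and hold all the members. Cdkn2a and Cdkn2b, which were chosen on this contrast, are among the 10 called higher, as is Eed, the gene in the strain name. The counts stand beside the 1.62% and 1.19% of all genes, and nothing is read from the share of list genes called. The remaining INK4 gene, Cdkn2d (p19 INK4d), had 129 and 223 UMIs and a ratio of 0.990 (0.794 to 1.24). Among the CIP/KIP genes Cdkn1c (p57) had 7 and 17 UMIs.

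The D cyclins, the partners that INK4 proteins counter, were split. Ccnd2 was at 5.69 CPM in wt and 68.8 CPM (4731 UMIs) in mutant dopamine nuclei, a ratio of 12.1 (10.6 to 13.9). With 5 CPM added its log2 ratio was 2.79, above the 2.21 of Cdkn2a. This order rests on the CPM added: with 1 CPM added the log2 ratios were 3.38 for Ccnd2 and 4.23 for Cdkn2a. Ccnd1 had 52 and 375 UMIs, 1.32 against 5.46 CPM, a ratio of 4.13 (3.09 to 5.63). Ccnd3 (0.912, 0.844 to 0.985) and Cdk6 (0.664, 0.554 to 0.797) had ratios under 1, of which Cdk6 was at 5.74 CPM in the wt and 3.81 in the mutant library. Cdk4 was at a ratio of 0.909 with an interval that included 1 (0.803 to 1.03).

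With 5 CPM added, 1 gene was called over the lists of Rb and E2F, S phase, p53, BCL2 and senescence genes. Genes of low level can hardly pass the mark on this scale, and a count of 0 in lists of this size is near the 1.62% and 1.19% of all genes. Of the Rb and E2F genes 0 of 10 measured were called in either direction (Rb1 ratio 0.947), of S phase and mitosis genes 0 of 20 (median log2 -0.03). Of the p53 pathway 0 of 28 were called (median log2 0.03), with Trp53 at a ratio of 1.10 (0.968 to 1.25) and Mdm2 at 1.11 (1.05 to 1.17). The lowest of this list was Aen, a p53-induced nuclease, with 127 and 83 UMIs, 3.22 against 1.21 CPM and a ratio of 0.374 (0.280 to 0.498). Its log2 ratio was -0.41 with 5 CPM added, and with 1 CPM added Aen passed the mark for lower. Tigar, a regulator of sugar metabolism in the same list, had a ratio of 0.779 (0.728 to 0.834). Of the BCL2 family and caspases 0 of 18 were called (median log2 0.06), and Pmaip1, in both of these lists, had the highest log2 ratio in each and was called with 1 CPM added. Of 13 measured senescence secretory genes 1 was called higher: Igfbp5, a binding protein of insulin-like growth factors, at 5.23 against 10.9 CPM (ratio 2.08, 1.78 to 2.44). Its log2 ratio of 0.64 dropped to 0.21 in male nuclei. The median log2 ratio of this list was -0.01, and its genes went both ways. Il6 (17 and 3 UMIs, ratio 0.101, 0.0190 to 0.350) and Igfbp2 (0.715, 0.549 to 0.933) had ratios under 1. Serpine2 (1.28, 1.23 to 1.33) and Igfbp4 (1.94, 1.18 to 3.32) had ratios over 1.

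In the list of Polycomb genes 5 of 22 were called higher and 0 lower, with a median log2 ratio of 0.18. Over all genes 1.62% were called higher and 1.19% lower. By share, 2 smaller lists lay above it, with 2 of 4 INK4 inhibitors and 2 of 5 D cyclins and partners called higher. The list also holds the histone demethylase genes Kdm6a and Kdm6b, and which of its genes act on this locus was not tested. Among the 5 were Pcgf1 (3.17 against 9.88 CPM, ratio 3.11), Eed itself (21.4 against 41.3 CPM, 1.93), Pcgf5 (1.73) and Cbx8 (2.97). Except for Eed these named genes encode subunits of PRC1, the partner complex that ubiquitinates histone H2A and compacts silenced chromatin. Bmi1, the PRC1 subunit best known for silencing Cdkn2a, lay just under the mark with a ratio of 1.92 (log2 0.58), and Ezh2, the methyltransferase of PRC2, had 1.13 (1.04 to 1.24).

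**Figure D4:**
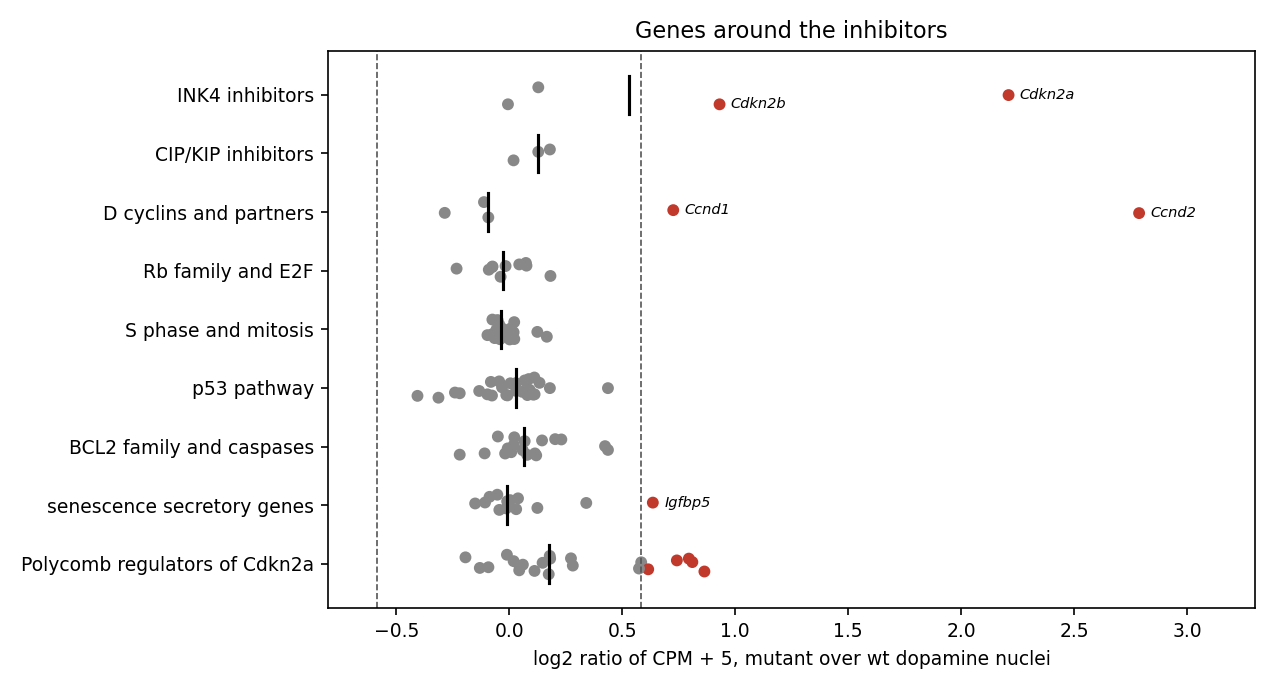
Log2 ratio of mutant over wt dopamine nuclei (5 CPM added) for the measured genes of the 9 lists; red points passed 1.5-fold (dashed lines) and black bars are list medians. Ccnd2 (2.79) and Cdkn2a (2.21) stand at the right, and the S phase, p53 and BCL2 lists hold no red point.

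The nuclei with most Cdkn2a were then set against nuclei of the same library and depth. There were 302 mutant dopamine nuclei with at least 2 Cdkn2a UMIs, and 287 could be paired with a nucleus without the tag whose total lay within 10%. The medians were 29328 and 29333 UMIs, and the remaining 15 (median 97238 UMIs) had no partner. Dopamine tags per 10000 were alike, 13.7 and 13.6, and Hox and Pax3 tags were 7.81 and 6.21. Nuclei of the Ndnf/Anxa1 set made up 26.8% of the first and 16.0% of the second group, and nuclei with glial tags 10.8% and 16.7%. This comparison was part of how the genes were chosen and pairs nuclei of 1 library, so it carries no test.

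The profile of these nuclei was close to that of their partners. A partner without a Cdkn2a tag is not shown to lack the transcript: of mutant dopamine nuclei with 20000 to 40000 UMIs 35.1% had a tag. The groups are thus split by few tags, and nothing about Cdkn2a is read from their closeness. Of 12485 genes with at least 50 UMIs 3 were 1.5-fold higher (0.024%) and 112 lower (0.897%), and the median log2 ratio was 0.01. Of the other members Cdkn2b and Cdkn1b reached 50 UMIs and were not called. Cdkn2b had 61 UMIs against 48 (ratio 1.25, 0.843 to 1.86) and Cdkn1b 70 against 55 (1.25, 0.867 to 1.82).

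Pmaip1 had 21 UMIs against 27 (0.765, 0.411 to 1.41) and Cdkn2c 4 against 4. Cdkn1a had 27 UMIs against 10, a ratio of 2.66 (1.25 to 6.15), in 21 nuclei (7.32%) against 8 (2.79%). Like Pmaip1 and Cdkn2c, Cdkn1a did not reach the minimum of UMIs set for a gene to be measured in this comparison. Its interval covers counting error only, and both groups of nuclei come from the same library, so no difference is read from it. Th (1.06, 0.955 to 1.17) and Slc6a3 (1.10, 1.03 to 1.17) differed little.

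Genes with higher counts in the mutant library were somewhat higher in the Cdkn2a nuclei. Hoxc4 had a ratio of 1.20 (1.11 to 1.29), Pax3 1.32 (1.21 to 1.43) and Gad1, the gene of a GABA-synthesising enzyme, 1.25 (1.15 to 1.36). All 19 measured Hox genes had a log2 ratio above 0, with a median of 0.24, against 53.9% of all genes, and 0 of the 19 were called. Of the 323 measured genes called higher in the mutant library 72.4% were above 0 (median log2 0.11). In the Cdkn2a nuclei 0 of them were called higher and 3 lower.

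The 10 genes with the highest log2 ratio in Cdkn2a nuclei were named as those nearest to Cdkn2a by this measure. The 3 of them called higher were Gm14005 (0.70, 1.24 against 5.17 CPM), Gm14661 (0.66, 6.02 against 12.4 CPM) and Gm7694 (0.62, 13.4 against 23.3 CPM). Each of the 3 lost its call in some alternatives. Gm14005, whose 55 UMIs came from 21 nuclei, was at 0.36 with at least 1 Cdkn2a UMI and 0.44 against depth deciles. Gm14661, whose 132 UMIs came from 28 nuclei, was at -0.11 in female nuclei, and Gm7694 was at 0.41 there and 0.48 with at least 1 Cdkn2a UMI. The other 7 of the 10 were Pax6os1 (0.58), Evx1os (0.56), AC134453.1 (0.56), Tcn2 (0.54), Rab13 (0.51), Gm28308 (0.51) and Gm10848 (0.51). Tcn2 carries vitamin B12 and Rab13 is a small GTPase of membrane traffic. Of these 10 genes 3 were also called higher between the libraries: Pax6os1 at 0.609 (wt) and 17.6 CPM (mut), Evx1os at 0.0762 and 6.23 CPM and Gm28308 at 0 and 4.03 CPM. Gm14661 went the other way, at 15.1 and 6.84 CPM (log2 -0.76).

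The genes lowest in Cdkn2a nuclei came with larger values. Gm32647 had 154 CPM in the partners and 37.2 in the Cdkn2a nuclei (log2 -1.91), Kctd16, an auxiliary subunit of GABA-B receptors, 136 and 45.5 CPM (-1.48), and Chrm2, a muscarinic acetylcholine receptor, 55.3 and 17.5 CPM (-1.42). Next were Reln, the secreted protein reelin (-1.36), Sulf1, a heparan sulfatase (-1.28), A830018L16Rik (-1.20), Megf11 (-1.19), Pcdh11x, a protocadherin (-1.17), Pcsk5, a proprotein convertase (-1.17), and Gm13912 (-1.11). Sulf1 is a marker of the Sema5b/Sulf1 subtype set. These are genes of part of the nuclei: Gm32647 had tags in 73 of 287 partners and 58 Cdkn2a nuclei, Chrm2 in 79 and 40, and the 63 UMIs of Gm13912 came from 12 nuclei.

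When partners were also taken from the same subtype set, 6 genes were called higher and 50 lower. Of the 112 lower genes 37 were called again and 107 kept their direction, and of the 3 higher genes 2 were called again. With at least 10 dopamine UMIs per 10000 asked of every nucleus, the log2 ratio of Gm32647 was -0.31 and that of Reln -0.31, while Kctd16 and Chrm2 stayed past 1.5-fold in each alternative in which they had enough tags.

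**Figure D5:**
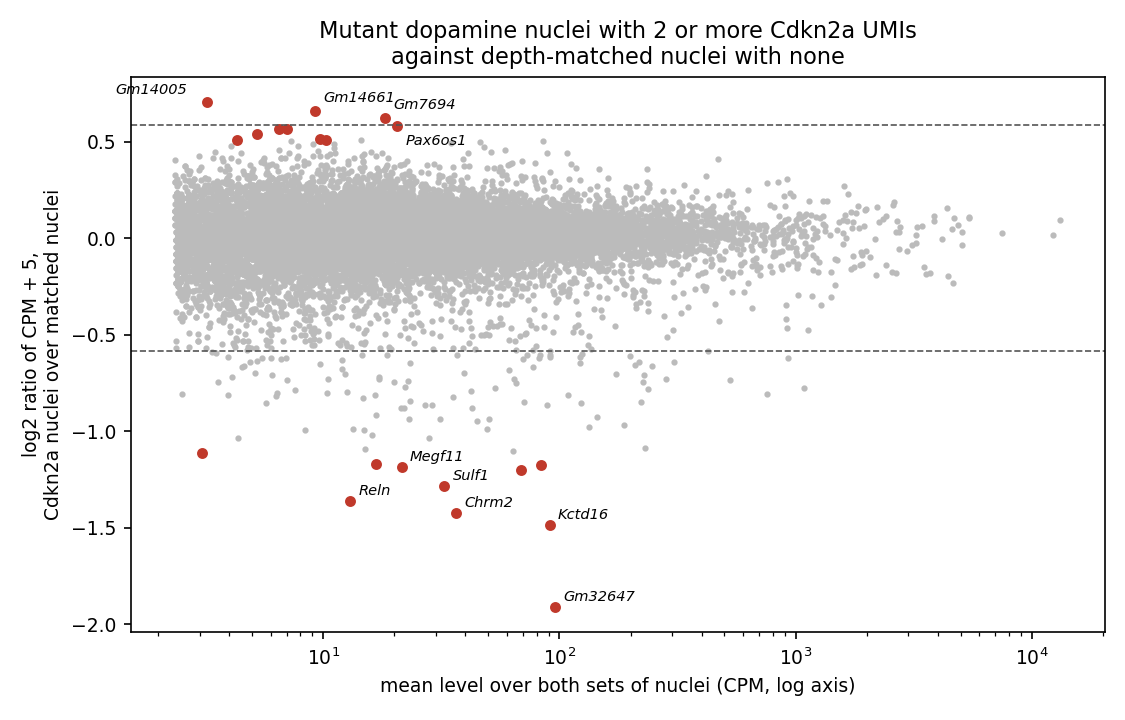
Log2 ratio (5 CPM added) of the 287 mutant dopamine nuclei with at least 2 Cdkn2a UMIs over 287 depth-matched nuclei with none, against mean level (CPM, log axis), for 12485 genes. Red points are the 10 highest and 10 lowest genes, from Gm14005 at 0.70 to Gm32647 at -1.91, and dashed lines mark 1.5-fold.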

How the data were processed

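Raw UMI counts for each gene in each nucleus were deposited by the authors as whole numbers, without normalisation. It holds 23481 genes and 5740 nuclei, and the genotype was read from the start of each column name, with KO taken as the group labelled PRC2 mutant. Cell Ranger 3.1.0 and the mm10 build are named in the submitters' processing notes, and filters before deposit are not given in the sources used here. No nucleus was removed and no doublet caller was run. Totals ranged from 673 to 121160 UMIs in wt and from 621 to 127151 in mutant nuclei.

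Counts were summed per library and kind of nucleus in Python 3.11.15 with numpy 2.4.6, scipy 1.17.1, pandas 2.3.3 and matplotlib 3.10.9. CPM is the sum per 1000000 tags of that kind of nucleus. Ratios have no pseudocount, and log2 ratios have 5 CPM added. A gene was measured with at least 10 UMIs over both libraries (50 in the comparison of nuclei with at least 2 Cdkn2a UMIs) and called at 1.5-fold. Thinned shares are expected values over all draws of 2000 UMIs. Free droplet RNA was not removed. The method was tested on simulated data. Positions are from GENCODE M21. With 1 library per genotype no test was made and no p-value is given.

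Named were all 6 members, called list genes (up to 4 per list by size) with Trp53, Mdm2, Cdk4, Cdk6, Rb1, Bmi1 and Ezh2, the 10 highest and 10 lowest genes of Cdkn2a nuclei, and table genes within 500 kb. Cbx8, Ccnd3, Aen, Tigar, Cdkn2d, Cdkn1c, Hoxc4, Pax3, Gad1, Th and Slc6a3 were added after their values were seen, and 1 gene the rule names is not reported here. The members, lists, marker sets and thresholds were chosen with earlier results of these data known. Alternatives were other limits for dopamine nuclei, Ddc alone, nuclei without glial tags, nuclei of 1 sex, another pseudocount and minimum, a mean over nuclei, other thinning depths, and other ways to choose and match Cdkn2a nuclei.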

Additional observations from a re-analysis of the deposited data

Results flagged for a closer look

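The genotype ratio of Cdkn1a (mutant over wt) was 1.98 in dopamine nuclei and 0.809 in other nuclei, on opposite sides of 1. In the other nuclei it rests on 10 wt UMIs, and the difference between the 2 kinds of nucleus was not tested. In the other nuclei without glial tags the ratio of Cdkn1a was 4.35 (0.661 to 184), on 1 wt UMI and 14 mutant UMIs. Nuclei with glial tags made up 44.5% of wt and 27.2% of mutant other nuclei. The part of this mix in the ratio of 0.809 was not tested.

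Cdkn1b had a ratio of 1.19 in dopamine nuclei and 0.901 in other nuclei, also on opposite sides of 1. The intervals of both ratios included 1, and the difference was not tested. In the other nuclei without glial tags the ratio of Cdkn1b was 1.53 (0.903 to 2.76), on 17 wt and 84 mutant UMIs. Within dopamine nuclei the ratio of Cdkn1b was 0.716 (0.338 to 1.49) in male and 1.21 (0.952 to 1.54) in female nuclei. The male values rest on 19 wt and 15 mutant UMIs from 1 mouse per pool, and this difference was not tested either.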

How the results depend on the processing

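No paired analysis was possible because each genotype is 1 library and its lanes are not kept apart in the table. For the same reason no replicate could be left out. In each alternative run the 6 genes gave 2 calls higher and 0 lower in mutant dopamine nuclei, except with 1 CPM added, where 3 were higher. The Cdkn2a level lay between 17.0 and 19.3 CPM, that of Pmaip1 between 1.09 (male nuclei) and 1.91 (1.80 over all) and that of Cdkn2c between 0 (male nuclei) and 0.521 (0.495 over all). Of all genes 325 were higher (1.62%) and 1.19% lower, against 531 higher and 674 lower in male nuclei and 717 and 602 with 1 CPM added. Of the list genes 0 were lower, against 2 in male nuclei and 1 (Aen) with 1 CPM added. The share of mutant dopamine nuclei with a Cdkn2a tag, 3.32% at 2000 UMIs, was 7.94% at 5000, 15.8% at 10000 and 27.5% without thinning. In nuclei with at least 2 Cdkn2a UMIs 3 genes were higher and 112 lower. The higher count was 6 with at least 3 dopamine tags, 12 with at least 10, 6 without nuclei with glial tags, 117 in male nuclei (12 nuclei with at least 2 Cdkn2a UMIs), 15 in female nuclei, 79 with 1 CPM added, 1 with at least 1 Cdkn2a UMI, 36 with at least 3, 6 matched within subtype, 8 matched on dopamine tags too and 7 against depth deciles. The lower count was 300 with 1 CPM added, 54 with at least 1 Cdkn2a UMI, 188 with at least 3 and 50 matched within subtype. Gm14661 turned from 0.66 to -0.11 in female nuclei. The cause of these moves was not tested. Of the other named values none changed sign while called. Depth limits what can be seen: 1 UMI is 0.0254 CPM in wt and 0.0145 CPM in mutant dopamine nuclei, so ratios over 1 wt UMI are known only to their intervals.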
